A study of Rattus norvegicus with 14 samples.

Results

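The miR-200 family is a set of 5 related microRNAs, miR-141, miR-200a, miR-200b, miR-200c and miR-429, made chiefly by epithelial cells. Every row of the deposited count table that names a mature product of 1 of these precursors was taken as a member, with both arms of the hairpin where both were listed. This gave 7 of the 375 listed miRNAs: the 3p products miR-141-3p, miR-200c-3p, miR-200a-3p and miR-200b-3p, the product named miR-429, and the 5p products miR-141-5p and miR-200b-5p. All 7 had counts in all 14 libraries.

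The libraries were made from serum of Long Evans rats, an outbred strain, on postnatal day 8. The PTU group of 6 libraries, labelled hypothyroid, came from pups whose dams drank water with 3 ppm of propylthiouracil (PTU), a drug that blocks thyroid hormone synthesis; the protocol describes the dams' own hypothyroidism as mild. The Control group of 8 libraries, labelled euthyroid, came from pups whose dams received 0 ppm. Each library holds serum of 1 female pup, no litter gave more than 1, and the dam, not the pup, was given the drug. Serum is cell free and takes up RNA from many tissues, so a larger or smaller number of source cells, more or less RNA per cell, and a different release into blood cannot be told apart here.

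As background, the miR-200 family holds epithelial cells in their state by repressing ZEB1 and ZEB2, transcription factors that switch off the adhesion gene E-cadherin, while the ZEB factors in turn repress the miR-200 genes. The members come from a pair of gene clusters, each transcribed as a common precursor. They also fall into a pair of groups by seed, the bases of the mature miRNA that pair with target mRNAs. miR-141 and miR-200a share the first seed, and miR-200b, miR-200c and miR-429 share the second, so the seed groups cut across the clusters.

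The sequences below show how close the abundant partners of a single cluster are, and how the scarce arm lies opposite the abundant arm. They are from RefSeq, rat assembly GRCr8, where 4 of the 7 members had a mature entry; the seed, bases 2 to 8 counted from the 5′ end, is in capitals.
miR-141-3p: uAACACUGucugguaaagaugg
miR-200c-3p: uAAUACUGccggguaaugaug
miR-141-5p: uCCAUCUUccagugcaguguug
miR-200b-5p: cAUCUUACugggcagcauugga
Read position by position from the 5′ end, miR-141-3p and miR-200c-3p were identical at 17 of the 21 bases they both cover, and differed by C4U, U9C, U11G and A17U (the miR-141-3p base first). The first of these is the only difference inside the seed. Of the other members, miR-200a-3p, miR-200b-3p and miR-429 are named only.

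In the next lines the mature arms of the neighbouring hairpins are in capitals, the 5p arm first and the 3p arm after the loop.
mir-141 hairpin: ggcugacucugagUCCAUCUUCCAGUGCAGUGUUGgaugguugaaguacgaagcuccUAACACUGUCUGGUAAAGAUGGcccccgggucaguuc
mir-200c hairpin: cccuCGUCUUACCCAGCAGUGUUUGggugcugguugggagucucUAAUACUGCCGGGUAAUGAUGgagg
In GRCr8 the miR-141 hairpin lies at chr4:159209525-159209618 and the miR-200c hairpin at chr4:159209965-159210033, both on the minus strand with 346 bases between them. The hairpins of miR-429, miR-200a and miR-200b lie on the minus strand of chromosome 5 within 1908 bases. The files name no genome build, and these positions are RefSeq's. The mature products of the family are known to be alike, and another counting method could divide reads among them differently.

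Total counts over the listed miRNAs ran from 452961 to 2119979 per library. PTU replicate 6 stood apart from the others. In this library 9 of 357 tested miRNAs were more than 4-fold above the median of the other 13 libraries, where no other library had more than 2 such miRNAs, and its root mean square log2 distance from that median was 0.789 (0.319 to 0.614 in the other 13). Results are therefore given with and without it.

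The family was a small part of the serum miRNA pool. Summed over the 7 members, it took 0.230% ± 0.180 of the counts in PTU libraries (SD, n = 6) and 0.175% ± 0.0228 in Control libraries (SD, n = 8). The summed level ran from 1139 to 4954 CPM in PTU libraries with a median of 1620 CPM, and from 1377 to 2378 CPM in Control libraries with a median of 1744 CPM (CPM are counts scaled to a common library size, here with TMM factors, the trimmed mean of M values). PTU replicate 6 held the 4954 CPM, and the next highest PTU library, replicate 2, had 2369 CPM, inside the Control range. Without PTU replicate 6 the PTU mean was 1582 ± 504 CPM (SD, n = 5), and the difference of the mean log2 sums between PTU and Control was -0.22, against 0.059 with all libraries. Both differences are descriptions and carry no test.

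The 5 abundant members had similar levels, and the 5p arms were far scarcer. By median CPM the order was the same in both groups: miR-200c-3p, miR-200a-3p, miR-141-3p, miR-429, miR-200b-3p, miR-141-5p and miR-200b-5p. Mature miRNAs are of nearly 1 length, so their CPM can be set side by side, although ligation and amplification can favour some sequences. Among the first 3 members the order was not uniform across pups. miR-200c-3p was above miR-200a-3p in 4 of 6 PTU and 4 of 8 Control libraries, and miR-200a-3p was above miR-141-3p in 3 of 6 PTU and 6 of 8 Control libraries. miR-141-3p was above miR-429 in 6 of 6 PTU and 6 of 8 Control libraries. miR-429 was above miR-200b-3p, its cluster partner with the same seed, in 6 of 6 PTU and 8 of 8 Control libraries. miR-200b-3p was above miR-141-5p in all libraries as well. Among all 375 miRNAs the 5 abundant members ranked from 103 to 169 by mean CPM, and the 5p arms ranked 339 and 371.

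**Figure D1:**
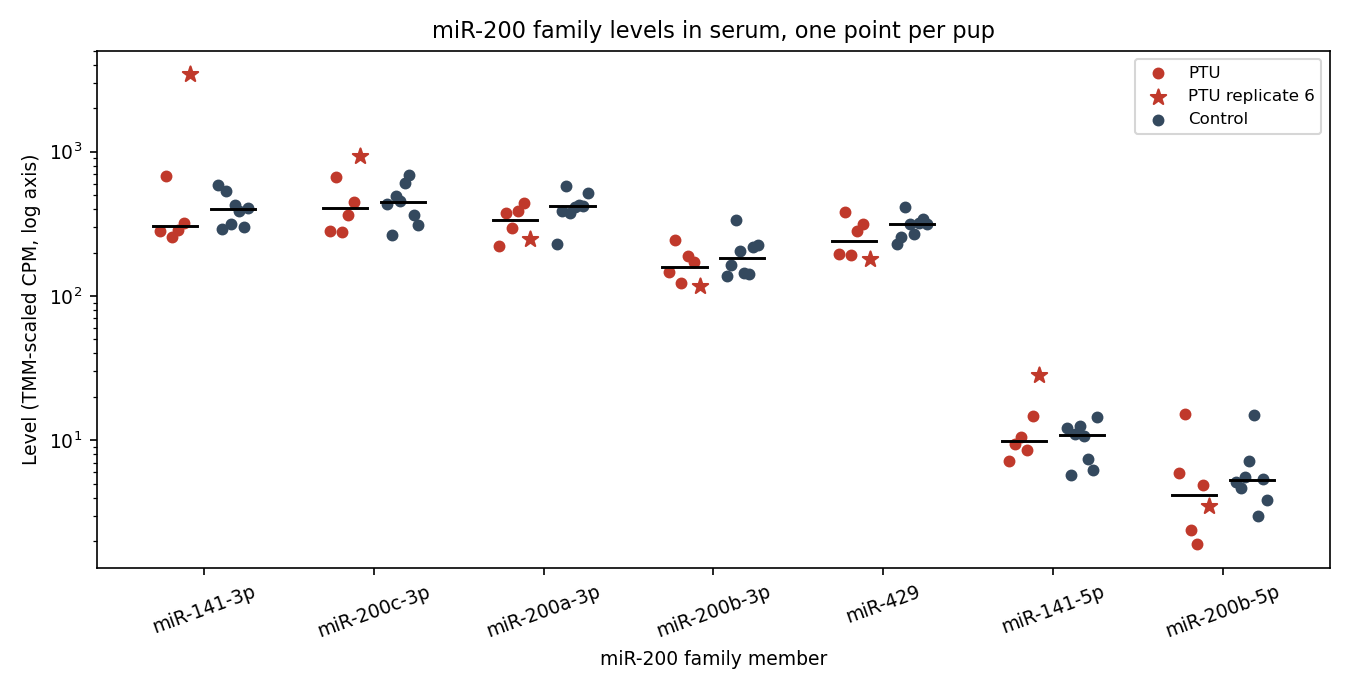
TMM-scaled CPM of each family member on a log axis, 1 point per pup, with PTU libraries left of Control libraries and black lines at the group medians. PTU replicate 6, drawn as a star, is the highest library for miR-141-3p (3441 CPM), miR-200c-3p and miR-141-5p, and the lowest PTU library for miR-200b-3p and miR-429.

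No member passed a false discovery rate of 0.05 between PTU and Control pups (quasi-likelihood test of edgeR, Benjamini-Hochberg over the 357 miRNAs tested). The same was true of every one of the 357, so the background was 0% called. At an unadjusted p under 0.05 there was 1 of the 6 tested members, miR-141-3p, where 13.2% of all tested miRNAs had such a p. It was higher in PTU by this fit (background 7.84% higher), and no member had such a p in the other direction (background 5.32% lower). The log2 fold change was positive for 3 of the tested members and negative for 3, with a median of -0.060, beside 57.7% positive and a median of 0.032 over all tested miRNAs. miR-200b-5p was left out by the filter on low counts. The PTU and Control ranges overlapped for every tested member, where 0.56% of tested miRNAs had groups that did not overlap.

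miR-141-3p, of the chromosome 4 cluster, carries the first seed. It had 258 to 3441 CPM in PTU libraries with a median of 304 CPM, and 292 to 590 CPM in Control libraries with a median of 398 CPM. In PTU, 3 libraries (replicates 1, 3 and 4) lay below every Control library, 2 (replicates 2 and 6) lay above every Control library, and 1 lay among them. The value in PTU replicate 6 rested on 4878 counts, against at most 574 in any of the others. By edgeR the fitted log2 fold change of miR-141-3p came to 1.11 ± 0.51 (SE; adjusted p = 0.356), and its 95% interval ran from 0.034 to 2.19. Without PTU replicate 6 it was -0.21 ± 0.24 (95% interval -0.72 to 0.30; adjusted p = 0.772, edgeR), so this 1 pup set both the size and the sign. By median, the PTU group was the lower one with all libraries included.

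miR-200c-3p, the cluster partner of miR-141, carries the second seed. It had 276 to 936 CPM in PTU libraries with a median of 404 CPM, and 264 to 686 CPM in Control libraries with a median of 447 CPM. PTU replicate 6 was again the highest library, and the other 5 PTU libraries lay inside the Control range. The log2 fold change was 0.13 ± 0.28 (SE; adjusted p = 0.903, edgeR) with all libraries. It was -0.20 ± 0.25 (adjusted p = 0.781, edgeR) without PTU replicate 6.

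miR-200a-3p, of the chromosome 5 cluster, shares its seed with miR-141-3p. It had 221 to 439 CPM in PTU libraries with a median of 338 CPM, and 228 to 582 CPM in Control libraries with a median of 418 CPM. In PTU, 5 of 6 libraries were below the Control median, and 5 of 6 lay within the Control range. PTU over Control, the log2 value was -0.35 ± 0.20 (SE; 95% interval -0.78 to 0.072; adjusted p = 0.451, edgeR).

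miR-429 had 179 to 385 CPM in PTU libraries with a median of 239 CPM, and 228 to 414 CPM in Control libraries with a median of 317 CPM. In PTU, 3 libraries (replicates 1, 3 and 6) were below every Control library, and 1 PTU library was above the Control median. In the mouse, miR-200b and miR-429 act in the pituitary, where they are needed for ovulation. For miR-429 the log2 value of PTU over Control was -0.25 ± 0.19 (SE; 95% interval -0.66 to 0.16; adjusted p = 0.560, edgeR).

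miR-200b-3p had 118 to 244 CPM in PTU libraries with a median of 159 CPM, and 138 to 336 CPM in Control libraries with a median of 184 CPM. In PTU, 4 of 6 libraries were below the Control median, and Control replicate 3 alone was above 244 CPM. PTU over Control, its log2 value was -0.25 ± 0.22 (SE; 95% interval -0.72 to 0.22; adjusted p = 0.644, edgeR). None of the 3 abundant members of the chromosome 5 cluster passed the test, and their log2 fold changes stayed negative without any single library, from -0.45 to -0.11.

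The 5p arms are the strands usually discarded when the hairpin is processed. miR-141-5p had 6 to 40 counts in PTU libraries and 5 to 19 counts in Control libraries, which is 7.16 to 28.2 CPM (median 9.96 CPM) in PTU and 5.73 to 14.6 CPM (median 10.9 CPM) in Control. PTU replicate 6 was the highest library for this arm too. Its log2 fold change was 0.43 ± 0.32 (SE; adjusted p = 0.553, edgeR), and 0.021 without PTU replicate 6. miR-200b-5p had 2 to 13 counts in PTU libraries and 2 to 9 counts in Control libraries, at or near the floor of 3 counts, which is 1.44 to 6.38 CPM depending on the library and covers counting error only. No difference in miR-200b-5p was detectable at this depth. In the authors' deposited table the lowest FDR of the 7 members is that of miR-141-3p, 0.286, beside a log2 fold change of 1.20. The authors' deposited table puts miR-200b-5p at -0.14 (FDR 0.970).

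**Figure D2:**
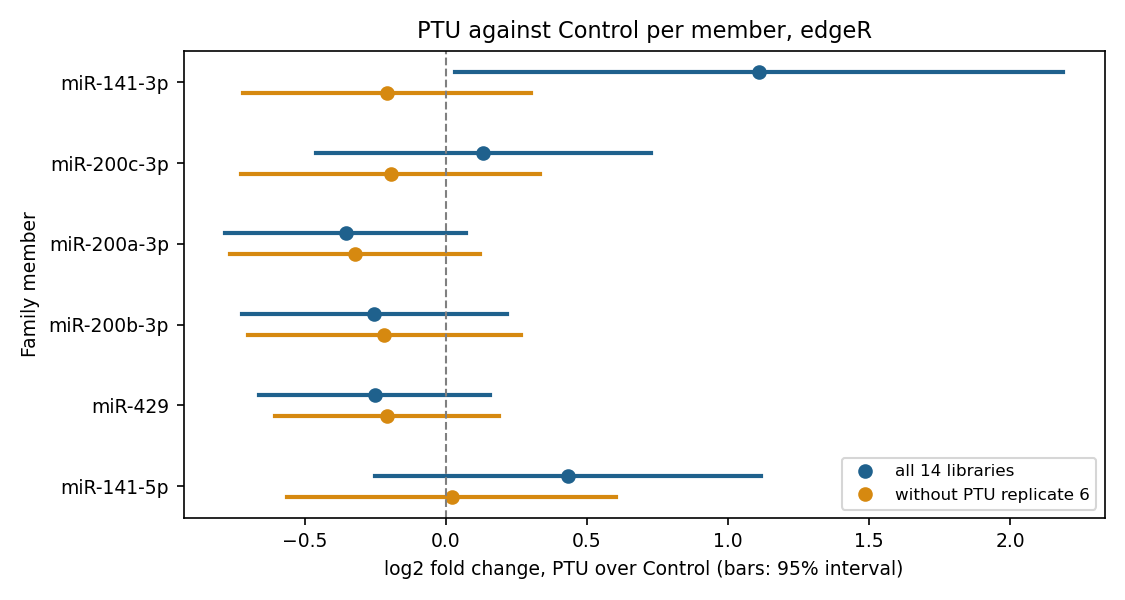
log2 fold change of PTU over Control for the 6 tested members, with 95% intervals, from all 14 libraries and from the 13 libraries without PTU replicate 6. The interval of miR-141-3p runs from 0.034 to 2.19 with all libraries and from -0.72 to 0.30 without PTU replicate 6, and the values of the chromosome 5 members hardly move.

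PTU replicate 6 separated the clusters. Relative to the median of the other 13 libraries, its log2 level was 3.41 higher for miR-141-3p, 1.28 higher for miR-141-5p and 1.10 higher for miR-200c-3p, all from the chromosome 4 cluster. The chromosome 5 members lay below that median, with log2 differences of -0.65 for miR-200a-3p, -0.55 for miR-200b-3p and -0.81 for miR-429. Of the 357 tested miRNAs ordered by this difference, miR-141-3p was at place 3, miR-141-5p at 23 and miR-200c-3p at 32, whereas miR-200b-3p, miR-200a-3p and miR-429 were at places 302, 323 and 336. miR-141-3p made up 69.5% of the family counts in this library, against a median of 23.6% in the PTU group and 21.9% in the Control group. The seed groups did not part in this way: miR-141-3p and miR-200a-3p, which share the first seed, lay on opposite sides of the median. Low values of the chromosome 5 members were not particular to PTU replicate 6. The log2 difference was -0.82 for miR-200a-3p in PTU replicate 1. In PTU replicate 3 it was -0.71 for miR-429 and -0.48 for miR-200b-3p. Control replicate 1 was low as well, at -0.77 for miR-200a-3p, -0.47 for miR-429 and -0.33 for miR-200b-3p.

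**Figure D3:**
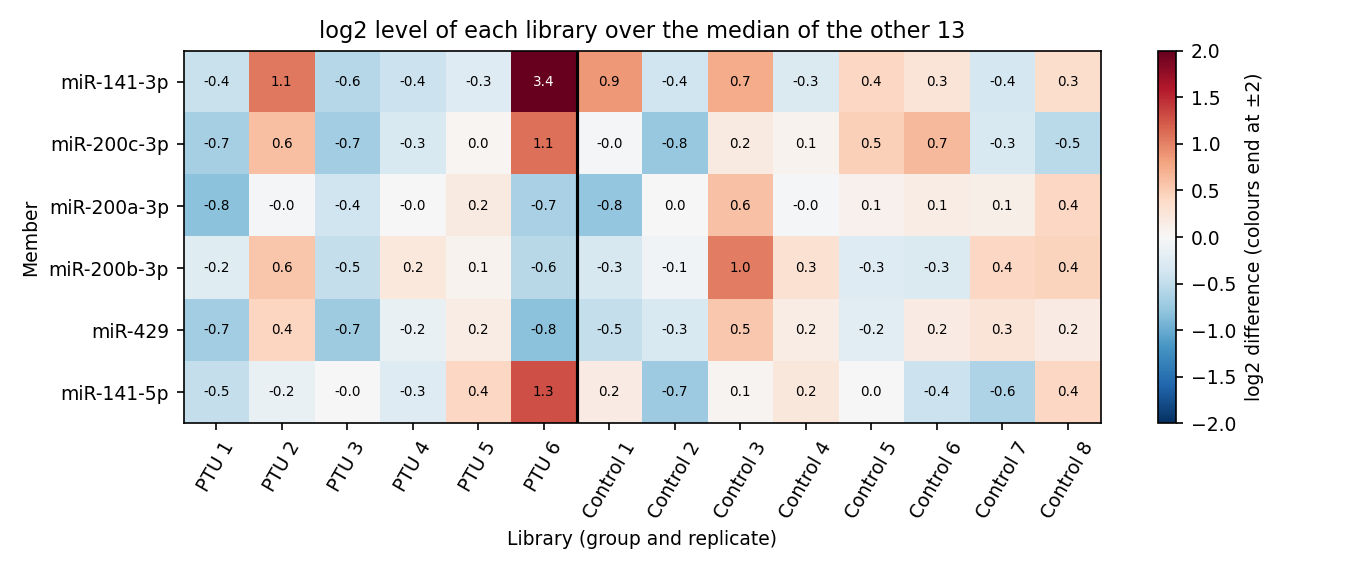
log2 level of each tested member in each library over the median of the other 13 libraries, with PTU libraries left of the black line. In the PTU 6 column miR-141-3p stands at 3.41, beyond the end of the colour scale, and the 3 chromosome 5 members are below 0.

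The other miRNAs that led in PTU replicate 6 were of several kinds. The place above miR-141-3p was taken by miR-484 (1061 CPM, against a median of 60.8 CPM in the other libraries), and the first place by miR-29b-3p (1512 CPM against 62.3 CPM), a regulator of collagen genes. miR-322-5p, which restrains the cell cycle, and miR-135b-5p followed after miR-141-3p. Some miRNAs of red cells and platelets were high there as well. The erythroid list had both arms of miR-144 and miR-451 in the table. The other name in that list, miR-486, was not in the table. The list summed to 2829 to 19148 CPM in PTU libraries and 1770 to 6018 CPM in Control libraries, and PTU replicate 6 held the highest sum, of which miR-451-5p alone made 17616 CPM. Its value of 8.46 CPM for miR-451-3p lay below the Control median of that arm, and both arms of miR-144 were highest in PTU replicate 3. Set against miR-23a-3p, of the platelet and endothelial list below, miR-451-5p was not highest in PTU replicate 6. On the log2 scale it stood at 1.24 there, against 1.54 in PTU replicate 3, 1.53 in replicate 4 and 0.88 in replicate 5. The highest Control library had 0.58, and PTU replicates 1 (0.54) and 2 (-0.51) lay below it. Whether this measure differs between the groups was not tested. All 4 of 4 listed erythroid products had a positive log2 fold change, with and without PTU replicate 6 (background 57.7% positive with all libraries). Of the 4, 3 had an unadjusted p under 0.05 by edgeR (background 13.2%), and 0 passed the adjusted threshold. The platelet and endothelial list summed to 10701 to 24134 CPM in PTU libraries and 10916 to 14848 CPM in Control libraries. Its sum was again highest in PTU replicate 6. Of its 7 products 5 were positive (background 57.7%), 1 had an unadjusted p under 0.05 (background 13.2%) and 0 passed the threshold. Without PTU replicate 6 only 2 of the 7, miR-222-3p and miR-221-3p, were positive. In PTU replicate 6, miR-222-3p, miR-221-3p, miR-126a-3p, miR-23a-3p and miR-223-3p lay above every Control library. There miR-126a-5p (2321 CPM) lay within the Control range, and miR-223-5p (7.76 CPM) lay below every Control library. No product analysed in these lists was at 0 in any library, and the part of these lists in the family's values was not tested.

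In PTU replicate 6 the sums of the leukocyte and liver lists lay within the range of the other libraries, and that of the striated muscle list lay below it. The leukocyte list was at 7819 CPM there, within the 6284 to 18246 CPM of PTU libraries and the 7085 to 10761 CPM of Control libraries (2 of 5 positive). Of its members, miR-155-5p (52.2 CPM) and miR-146a-5p (1546 CPM) lay below every Control library and miR-150-5p (1038 CPM) above every one. The liver miRNA miR-122-5p was at 1672 CPM, within 333 to 2146 CPM in PTU and 370 to 2567 CPM in Control libraries. The striated muscle list was at 354286 CPM, the lowest sum of all 14 libraries, where the other PTU libraries reached 590839 CPM and Control libraries ran from 413084 to 549885 CPM (3 of 7 positive). The counts of positive products stand beside 57.7% positive over all tested miRNAs. An unadjusted p under 0.05 (edgeR) was seen for 3 of 5 leukocyte, 1 of 7 striated muscle and 0 of 1 liver products (background 13.2%). Of those 3 leukocyte products, 1 was higher in PTU. No product of these 3 lists passed the adjusted threshold.

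Partners from the same cluster varied together across pups. Over all 14 libraries the log2 CPM of miR-200b-3p and miR-429 had a Pearson r of 0.87 (permutation p = 5e-05, adjusted p = 0.0005 over 10 pairs) and a Spearman rho of 0.83 (permutation p = 0.00047). For miR-200a-3p and miR-429, r was 0.84 (permutation p = 0.00022, adjusted p = 0.0011) and rho 0.73 (permutation p = 0.00439). For miR-200a-3p and miR-200b-3p, r was 0.72 (permutation p = 0.00356, adjusted p = 0.0089) and rho 0.56 (permutation p = 0.0417, adjusted p = 0.104). These 3 relations held without the 2 libraries farthest from the median of the first-named member. Over the remaining 12 libraries r was 0.80, 0.84 and 0.76. Within the groups, r for the same 3 pairs was 0.95, 0.85 and 0.69 in PTU (n = 6) and 0.84, 0.83 and 0.70 in Control (n = 8).

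In the chromosome 4 cluster, miR-141-3p and miR-200c-3p had r = 0.75 (permutation p = 0.00062, adjusted p = 0.00207) and rho = 0.76 (permutation p = 0.00243, adjusted p = 0.0121) over 14 libraries, with r = 0.91 in PTU (n = 6) and 0.39 in Control (n = 8). Without the 2 libraries farthest from the miR-141-3p median, PTU replicates 2 and 6, r was 0.55 (permutation p = 0.062). The relation was thus weaker without those pups. Without PTU replicate 6 alone r was 0.66. For the 6 pairs that join a chromosome 4 and a chromosome 5 member, r ran from -0.29 to 0.15 over 14 libraries, and none passed (lowest adjusted p = 0.665, permutation test). Without PTU replicate 6 those 6 pairs ran from 0.14 to 0.59 and the 4 pairs of a shared cluster from 0.66 to 0.84. In PTU alone without replicate 6 (n = 5), r across clusters ran from 0.35 (miR-141-3p and miR-200a-3p) to 0.96 (miR-200c-3p and miR-429). Pairs of a shared cluster ran from 0.60 to 0.93 there. In Control the pairs across clusters ran from -0.23 to 0.18. For miR-200c-3p and miR-429, the 2 libraries farthest from the miR-200c-3p median were PTU replicate 6 and Control replicate 2. Without them r was 0.58 (permutation p = 0.0478, not adjusted). Whether r differs between pairs of a shared cluster and pairs across clusters was not tested. CPM values share the scaling of their library, which can add to any of these r values.

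**Figure D4:**
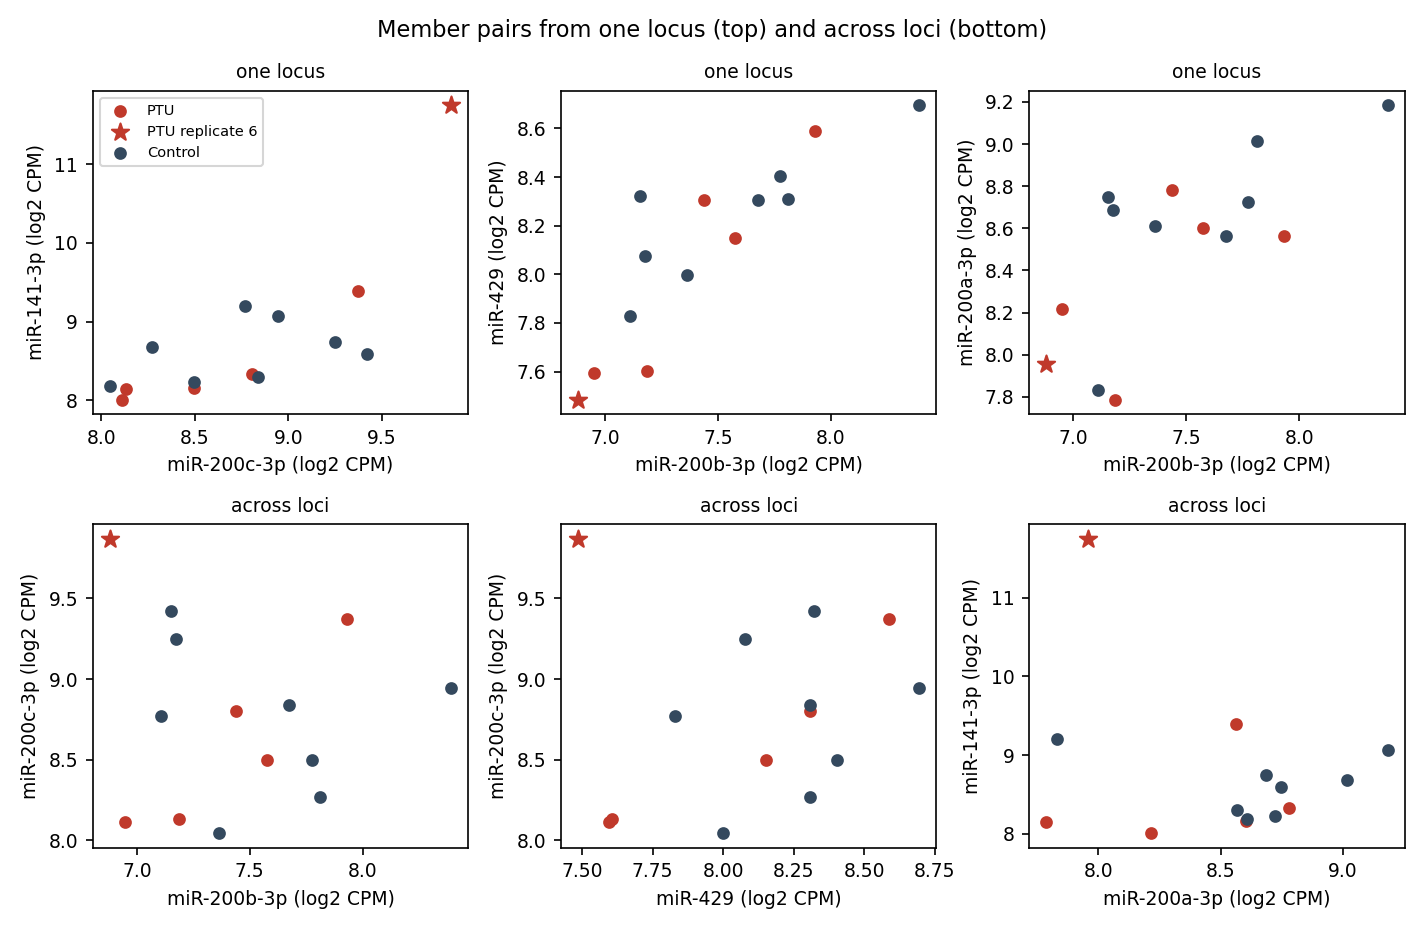
log2 CPM of member pairs, 1 point per pup; the upper row shows partners of a shared cluster and the lower row pairs across clusters. The miR-429 and miR-200b-3p panel has the highest r of the panels, 0.87, and PTU replicate 6 (star) is the highest point of all 3 lower panels.

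Ratios within a library need no scaling factor, and none of 7 ratios differed between PTU and Control pups beyond the spread (exact two-sided permutation test over 3003 splits, lowest p = 0.327, adjusted p = 0.843 for each). The log2 ratio of miR-429 to miR-200b-3p averaged 0.63 ± 0.15 in PTU (SD, n = 6) and 0.68 ± 0.26 in Control (SD, n = 8), the narrowest spread of the 7 ratios over all libraries (SD 0.21). The log2 ratio of miR-200a-3p to miR-200b-3p averaged 0.99 ± 0.31 in PTU and 1.11 ± 0.33 in Control (SD, n = 6 and 8). The ratios across clusters had a wider spread than these chromosome 5 ratios. Over all libraries the SD was 0.72 for miR-200c-3p to miR-200b-3p and 1.15 for miR-141-3p to miR-200a-3p. It was 0.65 for miR-141-3p to miR-200c-3p, of a single cluster, and 0.80 for the miR-200b arms. The log2 ratio of miR-200c-3p to miR-200b-3p averaged 1.47 ± 0.77 in PTU and 1.19 ± 0.71 in Control, and that of miR-141-3p to miR-200a-3p averaged 0.65 ± 1.62 in PTU and -0.045 ± 0.60 in Control (SD, n = 6 and 8).

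Between the partners miR-141-3p and miR-200c-3p, the log2 ratio was 1.88 in PTU replicate 6 and no higher than 0.020 in the other 5 PTU libraries; it ran from -0.83 to 0.43 in Control libraries. The group means were 0.17 ± 0.86 in PTU and -0.13 ± 0.47 in Control (SD, n = 6 and 8; exact permutation p = 0.492). For the arms of miR-141, the log2 ratio of 3p to 5p averaged 5.36 ± 0.96 in PTU and 5.28 ± 0.39 in Control (exact permutation p = 0.843, n = 6 and 8). For the arms of miR-200b it averaged 5.05 ± 0.83 in PTU and 4.94 ± 0.83 in Control (exact permutation p = 0.831, n = 6 and 8). Without PTU replicate 6 no ratio passed either (adjusted p = 0.940 for each, exact permutation test over 1287 splits).

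Outside the family, the miRNAs with the most similar pattern differed by cluster. They were ranked by Pearson r of log2 CPM over the 14 libraries among 351 other tested miRNAs, as a description without a test. miR-375-3p, a miRNA of endocrine cells in pancreas, pituitary and gut, came first for miR-200b-3p (r = 0.71) and for miR-429 (r = 0.72), and was at place 4 for miR-200a-3p (r = 0.66). Without Control replicate 3, which stands apart in miR-200b-3p, the first for that member was miR-542-5p (r = 0.72 over 13 libraries) and miR-375-3p was not among the first 5. Its own log2 fold change between PTU and Control was -0.086 ± 0.30 (SE; adjusted p = 0.943, edgeR). For miR-200a-3p the first was miR-195-5p (r = 0.75), followed by the inducible immune miRNA miR-146a-5p (r = 0.72). For miR-200c-3p the first were miR-30d-5p (r = 0.84) and miR-125a-5p (r = 0.82). For miR-141-3p the first were miR-29b-3p (r = 0.95) and miR-322-5p (r = 0.93), and without PTU replicate 6 the first was miR-671 (r = 0.80 over 13 libraries), with miR-29b-3p at place 4 (r = 0.76).

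Other epithelial miRNAs were set beside the family. Of 17 listed products of surface, glandular, gut, kidney, ciliated and endocrine epithelium 15 were tested. Of these, 5 had a positive and 10 a negative log2 fold change (background 57.7% positive). The median was -0.11, beside 0.032 over all tested miRNAs. None of the 15 passed a false discovery rate of 0.05, and 2 had an unadjusted p under 0.05 (background 13.2%). Those were miR-203b-3p of the skin, at -0.91 ± 0.31, and miR-184 of the cornea and other surface epithelia, at 1.88 ± 0.64 (SE; adjusted p = 0.257 for both, edgeR). miR-184 rested on PTU replicate 1, which had 222 CPM where the PTU median was 18.0 CPM and the Control median 15.3 CPM, and without it the value was 0.64. miR-203b-3p had 38.8 to 286 CPM in PTU libraries (median 109 CPM) and 169 to 285 CPM in Control libraries (median 232 CPM). Its highest PTU library was replicate 5, and leaving that pup out gave -1.36 (adjusted p = 0.00576, edgeR). No other run without a single library called any miRNA at a false discovery rate of 0.05. The lowest PTU value of miR-203b-3p was in replicate 6 (38.8 CPM), and without that pup the log2 fold change was -0.74.

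The surface and glandular list as a whole summed to 4053 to 10166 CPM in PTU libraries (median 5930 CPM). In Control libraries it summed to 5988 to 9570 CPM (median 8329 CPM). Of its products 1 of 7 was positive (background 57.7%), and the median log2 fold change was -0.14. PTU replicate 6, the highest library of the miR-200 family sum, had the lowest sum of this list. Its abundant members were miR-203a-3p (-0.43 ± 0.23, SE) and miR-205 (-0.11 ± 0.18), both of keratinocytes. Another name of this list, miR-96, was not in the deposited count table. The gut and kidney list summed to 136 to 444 CPM in PTU libraries and 217 to 382 CPM in Control libraries, and its highest sum was in PTU replicate 6. Its median log2 fold change was -0.18, with miR-215 at -0.91 ± 0.44, miR-192-5p at -0.18 ± 0.22 and miR-194-5p at 0.41 ± 0.29 (SE). Without PTU replicate 6 the value of miR-194-5p was -0.13. The ciliated list summed to 62.8 to 116 CPM in PTU libraries and 66.2 to 182 CPM in Control libraries, and the endocrine list to 401 to 752 CPM in PTU and 354 to 624 CPM in Control.

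**Figure D5:**
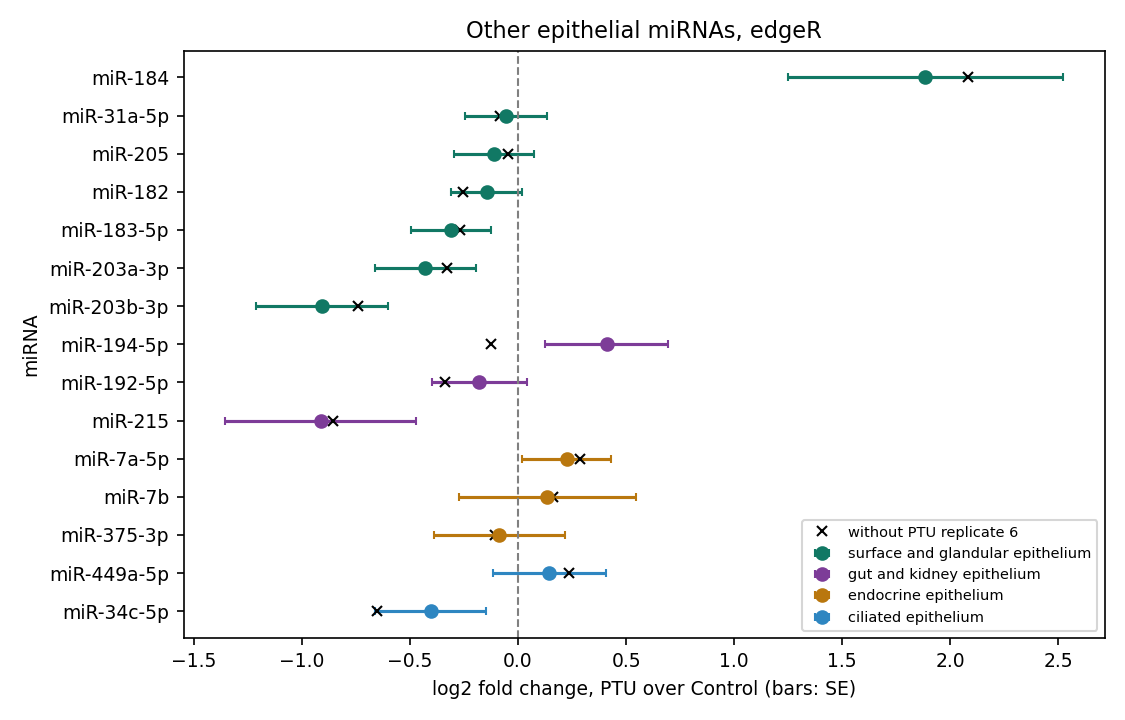
log2 fold change of PTU over Control (bars, SE) for the 15 tested miRNAs of other epithelia, with crosses for the values without PTU replicate 6. Of the 15, 10 lie below 0, and miR-184 at 1.88 is the farthest from 0. Over all 357 tested miRNAs 57.7% were positive.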

How the data were processed

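For the series the authors deposited a single table of raw counts per mature miRNA and library, whole numbers with no normalization. Its other columns are the authors' log2 fold change, their mean CPM on the log2 scale, their p-value and FDR, and the average count of either group, deposited as a linear signal. Per the labels' protocols, the QIAseq miRNA kit and 22 cycles of PCR were used. The submitters' processing notes list edgeR. Not given in the sources used here are the aligner, miRNA reference, genome build and any use of the kit's molecular identifiers. If the counts are reads, amplification adds spread. The totals cover listed miRNAs and are not library depth.

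Each count column took its sample from the identifier in the title. Libraries of a group differed by more than sampling noise (lowest chi-square per degree of freedom 23.1). Of the miRNAs, filterByExpr kept 357 and left out 18. TMM scaling and the quasi-likelihood test of edgeR 4.0.16 (R 4.3.3; PTU against Control, no covariate) followed, and the procedure was tested on simulated data. An SE is the size of the log2 fold change over the root of its F statistic. The prior count for log2 CPM was 2 and the pseudocount for log2 ratios 0.5. Correlations used members with a mean of at least 50 CPM and 100000 resamples. All members are named; other miRNAs are those of the fixed lists, the first of the 5 most like each member, and those that lead in PTU replicate 6, chosen after their values were seen. Members and lists were chosen with earlier results of these data known. Alternatives were other scalings, filters and tools (DESeq2 1.42.0, limma 3.58.1), a replicate block and each library left out.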

Additional observations from a re-analysis of the deposited data

Results flagged for a closer look

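Values were examined for a library that stands far from the rest of its group (Dixon's test at the 95% level) over 30 groups of values, and chance alone flags about 1 in 20 groups. PTU replicate 6 stood apart as the highest of the PTU libraries in miR-141-3p (3441 CPM), miR-141-5p (28.2 CPM) and the family sum (4954 CPM). It also stood apart in the log2 ratios of miR-141-3p to miR-200c-3p (1.88), miR-200c-3p to miR-200b-3p (2.99) and miR-141-3p to miR-200a-3p (3.79). In the last of these ratios Control replicate 1 was also far above the other Control libraries (1.37). Control replicate 3 was the highest of its group in miR-200b-3p (336 CPM). In the scarce miR-200b-5p, PTU replicate 2 (15.2 CPM, 13 counts) and Control replicate 5 (14.9 CPM, 7 counts) were each the highest of their group.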

How the results depend on the processing

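No member passed a false discovery rate of 0.05 under any alternative run. Over all miRNAs, 0 passed with edgeR (47 at an unadjusted p under 0.05), limma-voom also called 0 and DESeq2 called 1, which is no member; DESeq2 gave miR-141-3p no p. Leaving out 1 library gave 0 to 1 calls and 41 to 54 at an unadjusted p under 0.05. Without a single library, the log2 fold change ran from -0.21 to 1.38 for miR-141-3p and from -0.20 to 0.28 for miR-200c-3p, with both negative values from leaving out PTU replicate 6. Members with a positive log2 fold change numbered 1 to 3. The log2 difference ran from -0.22 to 0.20 for the family sum and -0.20 to 0.40 for the chromosome 4 cluster. For the sum of the chromosome 5 cluster it ran from -0.40 to -0.22, against -0.31 with all libraries, and carries no test. The differences in log2 ratio ran from -0.23 to 0.27 for the miR-141 arms and -0.15 to 0.32 for the miR-200b arms. They ran from -0.046 to 0.42 for miR-141-3p to miR-200c-3p, -0.11 to 0.011 for miR-429 to miR-200b-3p and -0.028 to 0.43 for miR-200c-3p to miR-200b-3p. The other ratios kept their sign, from -0.19 to -0.044 for miR-200a-3p to miR-200b-3p and 0.064 to 0.91 for miR-141-3p to miR-200a-3p. miR-200c-3p had -0.028 with upper-quartile factors. With limma-voom, run with a quality weight for each library, miR-141-3p had -0.071 and miR-200c-3p -0.097, and 1 member was positive. Upper-quartile factors moved the median of all miRNAs to -0.076 and no factors to 0.12, against 0.032; the members' medians were -0.20, 0.042 and -0.060. Same-numbered replicates did not pair (correlation of deviations from -0.25 to 0.29); with the replicate number as a block 27 miRNAs had an unadjusted p under 0.05, miR-141-3p had 0.19 (adjusted p = 0.942, edgeR) and miR-200c-3p -0.090. An exact permutation test of mean log2 CPM, added after the data were seen, gave miR-141-3p a difference of 0.34 (p = 0.681, adjusted p = 0.918). The cause of these changes was not tested. Low counts limit miR-141-5p and miR-200b-5p.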
